A study of Mus musculus with 6 samples.

Results

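The genes that write, erase and remodel chromatin were compared between regulatory T cells of 2 mouse strains. A gene belonged to the set when its symbol began with Kdm (1 to 8), Kmt2, Kmt5, Setd, Hdac, Dnmt1, Dnmt3 or Smarc, or was one of Sirt1 to Sirt7 or Tet1 to Tet3. The symbols matched 82 of the 32801 rows of the expression table, and 77 of these reached 10 normalized counts in at least 3 libraries and were tested, among 16442 genes tested in all. RNA was sequenced from thymic regulatory T cells, a CD4+ lineage that holds other immune cells in check, taken from C57BL/6 (B6) mice and from NOD mice, a model of spontaneous autoimmune diabetes. Mice of both strains were 3 weeks old, and both sorts kept GFP-negative, CD4+CD8-, Thy1.1+ cells, with 3 libraries per strain and no treatment named. What the GFP and Thy1.1 markers report, which allele or transgene carries them, and whether each library came from a separate animal are not in the labels. P-values therefore measure only the spread between these libraries, which may be technical.

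DNA methyltransferases (DNMT) add methyl groups to cytosines in CpG pairs, and TET dioxygenases oxidise them as a step toward removal. In regulatory T cells, loss of CpG methylation at an enhancer of Foxp3, the lineage-defining transcription factor, is known to stabilise its expression. Lysine methyltransferases (Kmt and Setd genes) and demethylases (Kdm genes) set and remove methyl marks on histone tails, histone deacetylases (HDAC) and sirtuins remove acetyl groups from lysines, and SWI/SNF complexes, whose subunits carry Smarc symbols, use ATP to move nucleosomes.

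Many of these genes start in CpG-rich sequence. RefSeq promoter windows (GRCm38.p6), which span 300 bases around a gene's start, were matched by symbol for 61 of the 77 tested genes and held a median of 22 CpG pairs, from 0 in Hdac9 and Kdm4c to 65 in Kdm7a. All 27025 genes with a window, which did not have to pass the filter on counts as these members did, had a median of 7. The GC-box letters GGGCGG stood on either strand in 67.2% of the members' windows and 35.9% of all windows, CCAAT in 36.1% and 38.0%, and TATAAA in 6.56% and 14.2%. The stretches below are exon-free bases just upstream of the RefSeq start of 4 genes. Kmt2d and Smarcd3 passed the test between strains described below (limma adjusted p below 0.05), and Setd3 and Kdm7a did not. Setd1b, which also passed, had no matched window. In the stretches, CpG pairs are in capitals, and GGGCGG is found in each on either strand. Kmt2d lies at chr15:98871206-98871455, Smarcd3 at chr5:24602013-24602252, Setd3 at chr12:108179315-108179534 and Kdm7a at chr6:39206790-39207023, all on the minus strand and read 5′ to 3′. The Smarcd3 stretch precedes the start of its shorter transcripts and so lies inside the gene's full span, in an intron of the longest transcripts, while the other stretches lie outside their genes.
Kmt2d: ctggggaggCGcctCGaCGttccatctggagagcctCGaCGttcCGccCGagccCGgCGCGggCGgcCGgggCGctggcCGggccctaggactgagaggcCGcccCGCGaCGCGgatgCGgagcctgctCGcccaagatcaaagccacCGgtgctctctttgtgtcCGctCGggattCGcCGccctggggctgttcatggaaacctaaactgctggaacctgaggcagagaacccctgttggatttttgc
Smarcd3: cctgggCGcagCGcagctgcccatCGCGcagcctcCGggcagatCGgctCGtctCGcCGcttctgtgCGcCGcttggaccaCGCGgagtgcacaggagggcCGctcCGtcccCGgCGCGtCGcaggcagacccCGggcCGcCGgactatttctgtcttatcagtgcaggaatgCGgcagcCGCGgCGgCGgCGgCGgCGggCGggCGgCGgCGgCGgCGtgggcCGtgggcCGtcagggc
Setd3: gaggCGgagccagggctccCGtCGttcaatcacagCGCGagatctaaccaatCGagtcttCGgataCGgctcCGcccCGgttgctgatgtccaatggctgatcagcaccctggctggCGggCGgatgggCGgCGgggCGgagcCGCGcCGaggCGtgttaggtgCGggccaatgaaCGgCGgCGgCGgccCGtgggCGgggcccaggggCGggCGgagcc
Kdm7a: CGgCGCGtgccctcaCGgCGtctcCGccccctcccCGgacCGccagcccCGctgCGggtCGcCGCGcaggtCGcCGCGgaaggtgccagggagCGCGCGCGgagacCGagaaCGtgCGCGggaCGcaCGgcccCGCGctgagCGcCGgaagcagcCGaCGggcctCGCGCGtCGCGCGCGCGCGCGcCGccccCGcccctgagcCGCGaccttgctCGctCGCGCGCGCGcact
The printed Kmt2d stretch held 26 CpG pairs in 250 bases, that of Smarcd3 38 in 240, that of Setd3 28 in 220 and that of Kdm7a 52 in 234. Kdm7a, with the most CpG pairs of the 4, had the higher mean in NOD cells, and the other 3 had the higher mean in B6 cells. In the 300-base windows, Setd4 and Setd6, also with the higher mean in NOD, held 29 and 28 CpG pairs. Kmt2d held 27 there, and Smarcd3 and Setd3 held 40 each. A link between CpG count and strain difference was not tested.

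Values are the authors' size-factor-scaled counts, in whole numbers, which are termed normalized counts, and the library sums ran from 16097369 to 17625903. The columns carry library numbers in place of replicate numbers, so the libraries are named NOD 2, 10 and 18 and B6 4, 12 and 20. Foxp3 was at 2310, 1701 and 2044 in the NOD libraries and 2446, 1954 and 1784 in the B6 libraries, which overlapped. Across genes, the deviations of NOD 10 and B6 12 from their strains' means had a correlation of 0.18, the highest of the 9 NOD and B6 pairs, and the others ran from -0.175 (NOD 10 with B6 20) to 0.127 (NOD 18 with B6 20). Results are also given without both NOD 10 and B6 12. NOD 10 also had the lowest summed level of 14 cell-cycle genes, at 17714, against 27683 in NOD 2, 28036 in NOD 18 and 21089 to 25464 in the B6 libraries. None of those 14 genes passed the test between strains.

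In the main limma fit 3 chromatin enzyme genes passed the test between the strains, and all 3 were lower in NOD cells. They were Kmt2d and Setd1b, which methylate lysine 4 of histone H3 (H3K4), and Smarcd3, a subunit of SWI/SNF complexes. With limma, 3 of 77 tested members (3.90%) had an adjusted p below 0.05, beside 9.89% of all tested genes. None of the 77 rose, beside 4.59% of all genes, and 3 fell, beside 5.30%. At an unadjusted limma p below 0.05 there were 12 of the 77 members and 3340 of the 16442 tested genes. In 17 members (22.1%) the strains did not overlap, 9 of them higher and 8 lower in NOD, beside 24.1% of all genes. Members had a median of 1377 normalized counts per gene against 188.7 over all tested genes, not corrected for length. Of the 42 members with a mean of 1000 or more, 1 was called, beside 9.96% of genes at that level. These shares are those of the main fit. The authors' deposited result called 8 of 79 members, 3 higher and 5 lower in NOD, beside 2143 of its 21988 genes (9.75%). The members' share in that result, and their share without overlap, lay close to those of all genes. All such shares describe the set, and the difference between the set and other genes was not tested.

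**Figure D1:**
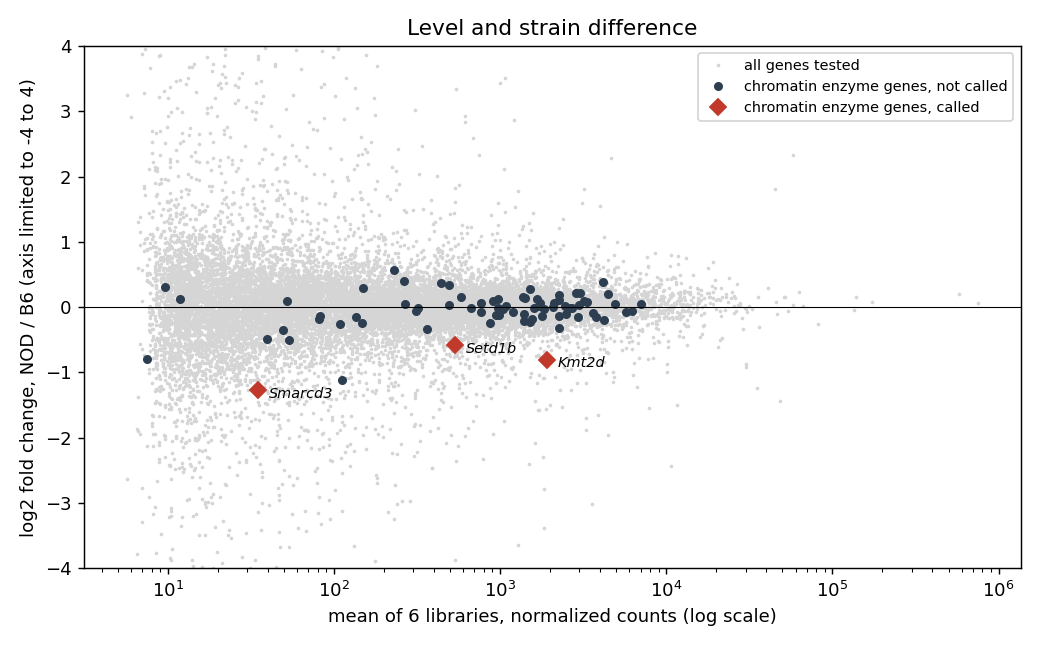
Mean level over 6 libraries (x axis, normalized counts, log scale) against the log2 fold change of NOD over B6 (y axis) for all tested genes (grey), uncalled chromatin enzyme genes (dark points) and the 3 called ones (red diamonds). Most dark points lie close to 0, and Kmt2d, Setd1b and Smarcd3 lie below it.

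The sizes of the differences were small. The median log2 fold change of NOD over B6 was -0.012 for the members and 0.014 for all tested genes, and the median size without its sign was 0.131 and 0.218. Differences ran from -1.28 (Smarcd3) to 0.57 (Setd4), and 5 members differed by more than 1.5-fold, of which Hdac11 and Dnmt3l-ps1 overlapped between strains and did not pass the test. For 52 members (67.5%) the 95% interval of the fold change lay wholly within 1.5-fold in either direction, as it did for 38.0% of all tested genes. The median half-width of that interval was 0.29 on the log2 scale for the members and 0.45 for all genes. Members also had a higher median level, at 1377 normalized counts against 188.7 for all tested genes. The part of level in these sizes and widths was not tested, and no share among genes of like level is given for them. For those 52 genes a change beyond 1.5-fold lies outside the interval, with each gene taken alone.

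**Figure D2:**
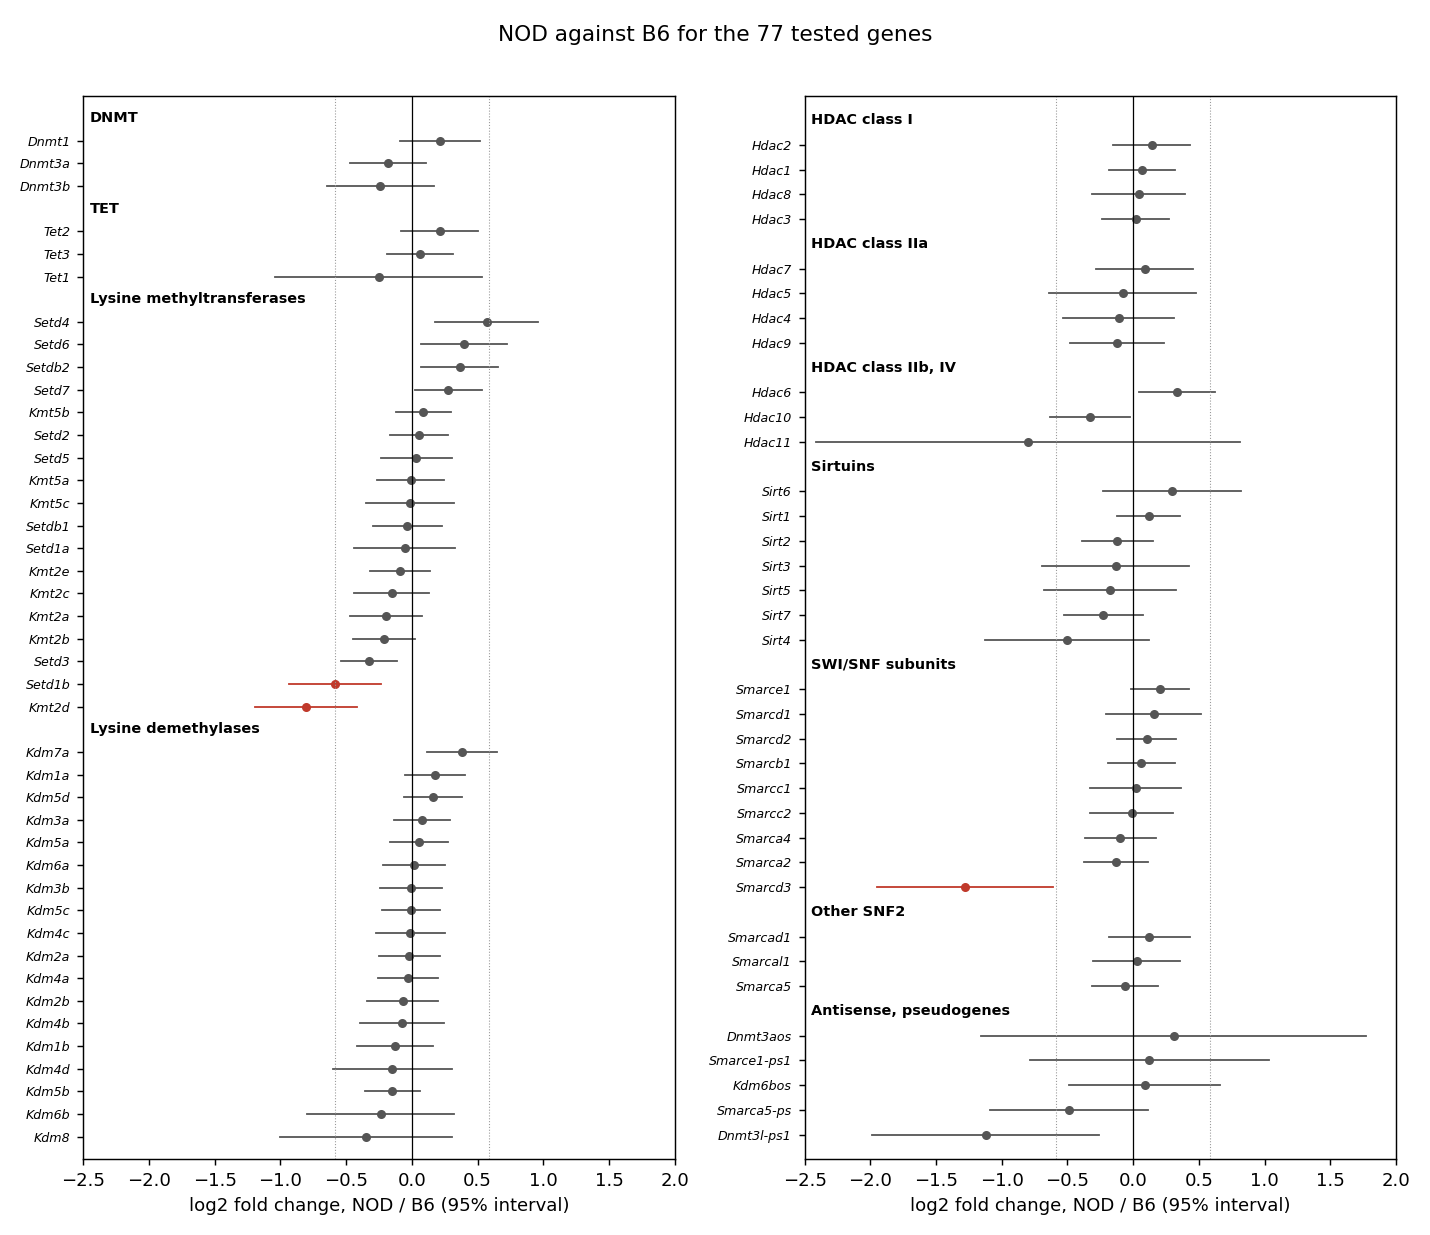
Log2 fold change of NOD over B6 (x axis) for the 77 tested genes by role, with 95% intervals; red marks an adjusted p below 0.05 and dotted lines mark 1.5-fold. The 3 red genes lie to the left, and the widest interval is that of Hdac11.

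Among the 18 lysine methyltransferase genes tested, 2 fell in NOD cells (11.1%, beside 5.30% of all tested genes) and none rose. Kmt2d (MLL4), the enzyme that places the single methyl mark of H3K4 at enhancers, lies on chromosome 15 from 98831669 to 98871204. It was at 1328, 1343 and 1427 normalized counts in NOD 2, 10 and 18, and at 2476, 3144 and 1752 in B6 4, 12 and 20. All NOD libraries lay below all B6 libraries, and the B6 libraries were spread more widely, with a mean of 2457 ± 696 (SD, n = 3) against 1366 ± 53.4 in NOD. The log2 fold change was -0.81 ± 0.18 (SE, limma adjusted p = 0.012), a level 1.75-fold higher in B6. The call was lost without B6 4 (-0.78, limma adjusted p = 0.063) and without both NOD 10 and B6 12 (-0.60, limma adjusted p = 0.086), and also when the variance was modelled without its trend on the mean (limma adjusted p = 0.11).

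Setd1b, a catalytic subunit of the SET1 complexes that place 3 methyl groups on H3K4, lies on chromosome 5 from 123142193 to 123168629. Its values were 393, 389 and 509 in the NOD libraries and 674, 732 and 534 in the B6 libraries. The strains did not overlap, although NOD 18 and B6 20 were close. The log2 fold change was -0.59 ± 0.16 (limma adjusted p = 0.041), from a mean of 647 ± 102 in B6 to 430 ± 68.2 in NOD. Of the 3 calls this one was lost most often, as it missed the threshold without NOD 2 (limma adjusted p = 0.15), NOD 10 (0.081), B6 4 (0.16) or B6 12 (0.17), and without both NOD 10 and B6 12 (0.24). It was also lost with no filter on low values (0.052), with quantile normalization (0.06) and without the variance trend (0.15).

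The close relatives of these enzymes did not pass the test. Setd1a, the paralog of Setd1b, had a log2 fold change of -0.05 with a 95% interval from -0.44 to 0.33. Kmt2c, the paralog of Kmt2d, was at -0.15 (-0.44 to 0.13), and its values of 2876, 2479 and 3031 in NOD overlapped those of 3289, 3462 and 2614 in B6. Kmt2a and Kmt2b, the MLL1-type enzymes, were at -0.20 and -0.21, and in Kmt2b the strains did not overlap (limma adjusted p = 0.31). Whether Kmt2d or Setd1b differed from its paralog in response was not tested.

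Setd3, an actin histidine methyltransferase despite its SET-domain name, was at 1920, 2077 and 2006 normalized counts in NOD and 2574, 2378 and 2574 in B6. The strains did not overlap, and the log2 fold change of -0.33 ± 0.10 missed the threshold (limma adjusted p = 0.062). It passed with quantile normalization (limma adjusted p = 0.041) with a filter of 50 normalized counts (0.05 after rounding) and with a covariate for NOD 10 and B6 12 (0.034). Setd4 went the other way, with 232, 312 and 280 in NOD and 159, 210 and 185 in B6. Its strains did not overlap either, with a log2 fold change of 0.57 ± 0.18 (limma adjusted p = 0.074, or 0.031 with that covariate). Setd6, which methylates the NF-kB subunit RelA, was at 309, 289 and 298 against 203, 244 and 234 (0.40, limma adjusted p = 0.14). Setd7, which places a single methyl group on H3K4, and Setdb2, of the family that methylates H3K9, also had separate strains, at 0.28 and 0.36 (limma adjusted p = 0.20 and 0.13). The highest level per kilobase of exon in the class was that of Setd2, the H3K36 trimethylase, at 459 normalized counts per kb, and its log2 fold change was 0.05 (-0.16 to 0.27).

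**Figure D3:**
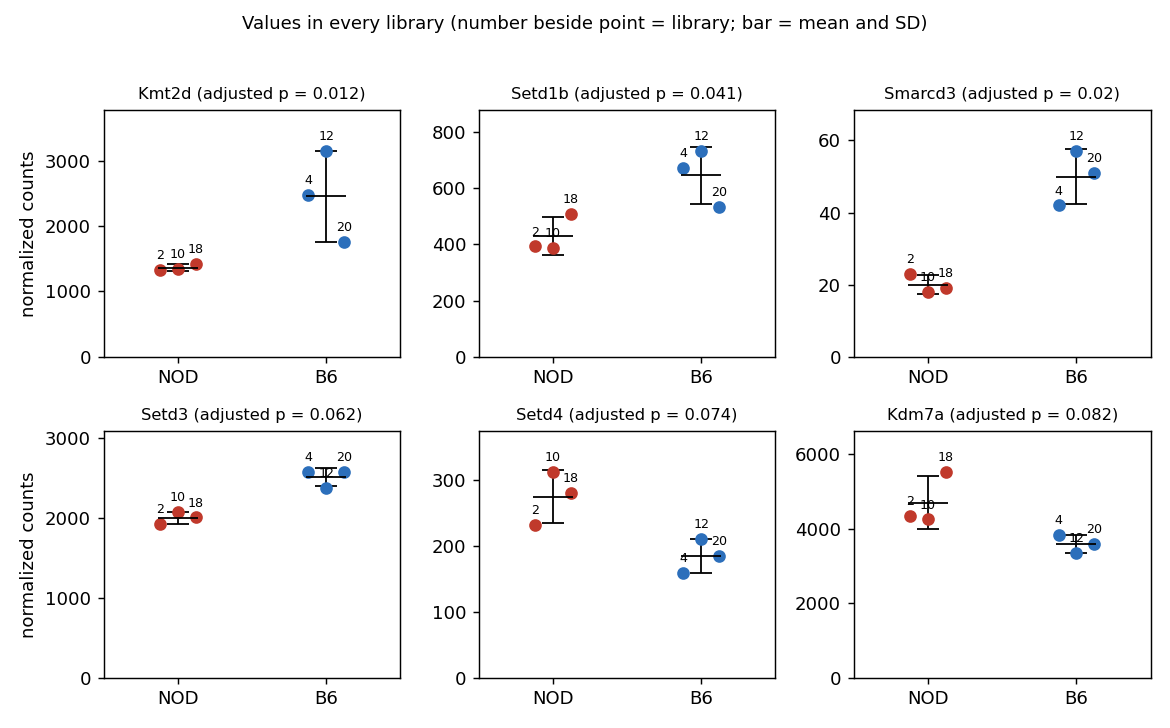
Normalized counts (y axis, from 0) of Kmt2d, Setd1b, Smarcd3, Setd3, Setd4 and Kdm7a in each NOD and B6 library, with library numbers beside the points, and the mean and SD of 3 libraries as bars. The strains do not overlap in any of the 6 genes, and the B6 libraries of Kmt2d run from 1752 to 3144.

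Of the 9 SWI/SNF subunit genes, 1 fell (11.1%, beside 5.30% of all tested genes) and none rose; with so few genes neither class share is a result about its class. Smarcd3 (BAF60c), an alternative to Smarcd1 and Smarcd2 in the complex, lies on chromosome 5 from 24590818 to 24624411. Smarcd3 was at 23, 18 and 19 normalized counts in NOD 2, 10 and 18, and at 42, 57 and 51 in B6 4, 12 and 20. The strains did not overlap, with a log2 fold change of -1.28 ± 0.30 on the log2(value + 1) scale (limma adjusted p = 0.020), and B6 cells had 2.42-fold more. The level was low, however, at 6.84 normalized counts per kb of exon, against 144 for Smarcd1 and 629 for Smarcd2. Those alternatives had log2 fold changes of 0.15 (-0.21 to 0.52) and 0.10 (-0.12 to 0.33), and neither passed the test. The Smarcd3 call was lost without NOD 18 (limma adjusted p = 0.074), without B6 12 (0.086) and without both NOD 10 and B6 12 (0.12), and the gene was not tested at a filter of 50.

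Smarcd3 overlaps Chpf2 on the opposite strand, and the strand setting of the counting is not given in the sources used here. Chpf2, which encodes a chondroitin polymerizing factor, was at 385, 539 and 374 in NOD and 598, 595 and 591 in B6, a log2 fold change of -0.48 ± 0.15 (limma adjusted p = 0.084). Both genes were thus lower in every NOD library, and the part of Chpf2 reads in the Smarcd3 value was not tested.

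No other SWI/SNF subunit gene passed the test. The ATPases Smarca4 (BRG1) and Smarca2 (BRM) had log2 fold changes of -0.10 (-0.37 to 0.17) and -0.13 (-0.37 to 0.11), and the core subunit Smarcb1 was at 0.06 (-0.19 to 0.32). Smarce1 had the highest level per kilobase of the class, at 673 normalized counts per kb. It was at 4706, 5036 and 4632 in NOD and 4265, 4382 and 3829 in B6, with strains apart and a log2 fold change of 0.21 ± 0.10 (limma adjusted p = 0.29). Of the other SNF2-type ATPases, Smarca5, the motor of ISWI complexes, had the highest level per kilobase of all tested members, at 799 normalized counts per kb (-0.06, -0.31 to 0.19). Smarca1, its close relative, was at 0 in all 6 libraries.

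None of the 18 lysine demethylase genes passed the test. Kdm7a, which acts on methylated H3K9 and H3K27, came nearest, with 4341, 4254 and 5525 normalized counts in NOD and 3842, 3350 and 3602 in B6. NOD 18 stood highest and the strains did not overlap, with a log2 fold change of 0.38 ± 0.12 (limma adjusted p = 0.082). Without NOD 10 the difference was 0.45 (limma adjusted p = 0.042), and with the covariate for NOD 10 and B6 12 the limma adjusted p was 0.029. Kdm1a (LSD1) and Kdm5b also had separate strains, at 0.18 and -0.15 (limma adjusted p = 0.40 and 0.46). Kdm2b, a CpG-island-binding demethylase, had the highest level per kilobase in the class, at 530 normalized counts per kb, and was at 5198, 6507 and 5162 in NOD and 5520, 6567 and 5582 in B6. Its strains overlapped (-0.07, -0.34 to 0.20), and in both strains libraries 10 and 12 were the highest. For 14 of the 18 demethylases the 95% interval lay within 1.5-fold.

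Members on the sex chromosomes showed no call. Kdm5d, the Y-linked H3K4 demethylase, was at 1464, 1428 and 1466 in NOD and 1255, 1284 and 1364 in B6 (0.16 ± 0.10, limma adjusted p = 0.44), so a Y-linked transcript was present in every library. Its X-linked relative Kdm5c was at -0.01 (-0.23 to 0.21), the X-linked H3K27 demethylase Kdm6a at 0.02 (-0.22 to 0.25) and Hdac8 at 0.04 (-0.31 to 0.40). Hdac6, a cytoplasmic deacetylase of tubulin, was at 567, 538 and 548 in NOD and 387, 437 and 490 in B6, with strains apart (0.34 ± 0.13, limma adjusted p = 0.17).

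None of the DNMT genes passed the test. Dnmt1, which copies methylation onto new DNA, was at 3716, 2598 and 3518 normalized counts in NOD and 2851, 2560 and 2971 in B6. NOD 10 lay among the B6 libraries, and the log2 fold change was 0.22 ± 0.14 (limma adjusted p = 0.46). Without NOD 10 it was 0.38 and passed (limma adjusted p = 0.049). Within each strain, the library lowest in Dnmt1 was also the lowest in the summed cell-cycle genes given above, and the part of the cell cycle in the Dnmt1 values was not tested. In bulk samples such as these, fewer cells of a kind and less RNA per cell cannot be told apart.

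The de novo methyltransferases were lower in the NOD means, within the spread. Dnmt3a was at 1398, 1439 and 1484 in NOD and 1977, 1572 and 1403 in B6, where B6 20 lay among the NOD libraries (-0.18, -0.47 to 0.11). Dnmt3b was at 135, 122 and 148 against 141, 157 and 182 (-0.24, -0.65 to 0.17). Dnmt1 had the highest level per kilobase of exon of these genes, at 412 normalized counts per kb, then Dnmt3a at 92.9 and Dnmt3b at 28.9, and the ranges of the 6 libraries did not overlap between them.

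None of the TET genes passed either. Tet2 was at 3111, 3032 and 3050 in NOD and 2774, 3117 and 2141 in B6, and Tet3 at 2153, 2106 and 2178 in NOD and 2276, 2142 and 1774 in B6. B6 20 was the lowest library for both genes, and the log2 fold changes were 0.21 (-0.08 to 0.51) and 0.06 (-0.19 to 0.32). Tet1 was low and variable, at 139, 50 and 120 in NOD and 99, 94 and 153 in B6 (-0.25, -1.04 to 0.53). NOD 10 was the lowest for Tet1, and without that library the difference was 0.20 in the other direction, also uncalled. Per kilobase of exon, Tet2 was at 170 normalized counts, Tet3 at 126 and Tet1 at 7.06.

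None of the 11 histone deacetylase genes passed the test. Intervals of all 4 class I genes lay within 1.5-fold. Hdac1, the catalytic subunit of several corepressor complexes, had the highest level per kilobase of all deacetylases, at 504 normalized counts per kb, and was at 1792, 1602 and 1933 in NOD and 1800, 1542 and 1741 in B6 (0.07, -0.18 to 0.32). Among class IIa genes, which shuttle between nucleus and cytoplasm, Hdac7 was the highest at 134 normalized counts per kb (0.09, -0.28 to 0.45). Hdac5 was marked by NOD 10, with 538, 1135 and 605 in NOD against 801, 923 and 591 in B6 (-0.08). Hdac10, of class IIb, was at 307, 351 and 302 in NOD and 399, 369 and 438 in B6, with strains apart and a log2 fold change of -0.33 ± 0.14 (limma adjusted p = 0.21).

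Sirtuins, the NAD-dependent deacylases, gave no call among 7 genes, and their strains overlapped in each. Sirt1, a nuclear deacetylase, was the highest at 312 normalized counts per kb, with 1869, 1551 and 1779 in NOD and 1621, 1505 and 1654 in B6 (0.12, -0.12 to 0.36). Sirt7, a nucleolar sirtuin, was at 1219, 1720 and 1268 in NOD against 1656, 1595 and 1611 in B6 (-0.23 ± 0.14, limma adjusted p = 0.42). NOD 10 alone reached the B6 range, and Sirt7 passed the test without that library. The mitochondrial Sirt3, Sirt4 and Sirt5 were at 13.9, 22.5 and 13.3 normalized counts per kb, and their wider intervals reached past 1.5-fold.

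**Figure D4:**
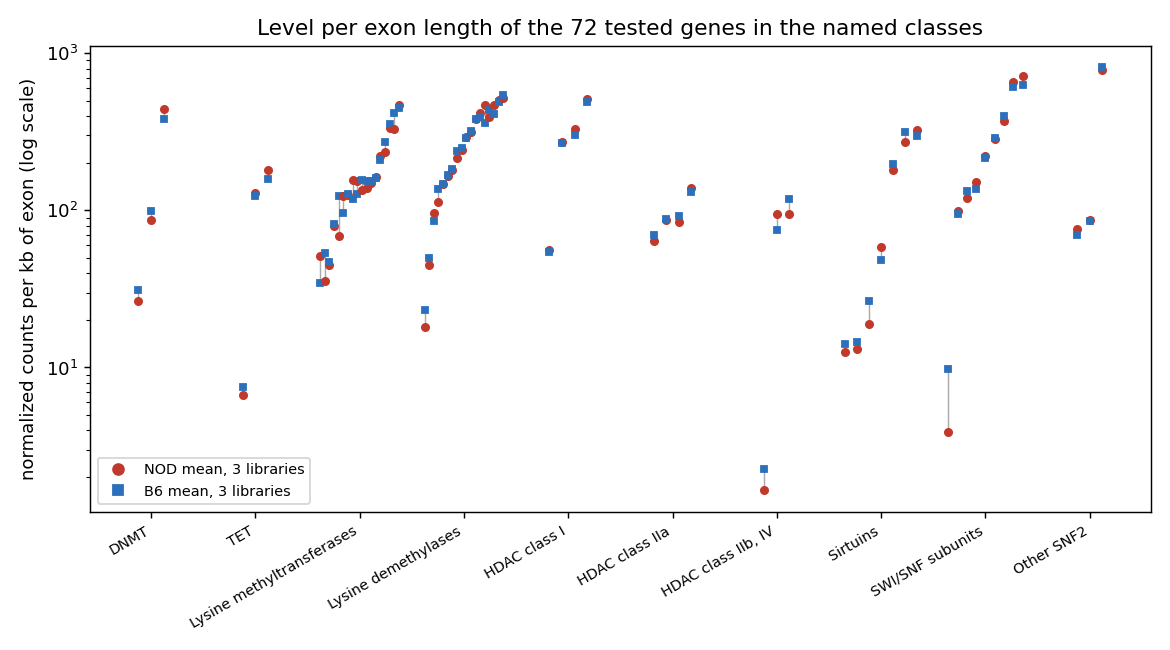
Level per kilobase of annotated exon (y axis, normalized counts per kb, log scale) of the 72 tested genes in the named classes (x axis), as the mean of 3 NOD (red circles) and 3 B6 libraries (blue squares), ordered by level within a class. The strain means lie close together for most genes, with the widest gap at Smarcd3, and Smarca5 is the highest.

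Other genes of the same pathways, which the symbol rule does not take, were read from 7 lists of 139 symbols, 135 of them in the table and 4 of them older symbols that were not, chosen with earlier results of these data known. Of 130 tested, none rose and 5 fell (3.85%), beside 9.89% of all genes, and their median log2 fold change was -0.028. Tdg, the glycosylase that removes oxidised methylcytosine after TET enzymes, was the 1 of 19 DNA methylation partners that fell. It was at 737, 908 and 792 in NOD and 1671, 1724 and 1536 in B6, with strains far apart (-1.02 ± 0.12, limma adjusted p = 0.00016). Cbx7, a reader of H3K27 methylation, fell among 29 Polycomb genes (-0.82 ± 0.14, limma adjusted p = 0.0022), from 1500, 1221 and 1230 in B6 to 688, 869 and 691 in NOD. Brd9, a subunit of the non-canonical BAF complex, fell among 17 further SWI/SNF genes (-0.53 ± 0.11, limma adjusted p = 0.0080). Dot1l, the H3K79 methyltransferase, and Uty, a Y-linked relative of Kdm6a, fell among 22 further methyltransferases and demethylases (-0.75 ± 0.17 and -0.56 ± 0.13, limma adjusted p = 0.015 and 0.018). Dot1l was at 1091, 1196 and 1337 in NOD and 2484, 2226 and 1515 in B6, so that B6 20 was nearest to NOD, as it was for Kmt2d. No gene passed among 13 histone acetyltransferases, 20 corepressor genes or 10 partners of the H3K4 methyltransferase complexes.

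Genes of other cells that a sort could hold were read beside these results. Of 7 regulatory T cell markers 1 rose, Cd3e. Of 6 tested markers of immature thymocytes, Cd8a rose (2.31 ± 0.46) and Rag1 fell (-1.07 ± 0.25). Dntt, at 8, 11 and 17 in NOD against 34, 25 and 25 in B6, and Arpp21, at 20, 5 and 16 against 30, 33 and 24, were lower in every NOD library without passing the test. The summed list ran from 1440 to 1773 in NOD and 1251 to 1468 in B6, most of it from Cd1d1, at 1454, 1312 and 1104 against 1065, 968 and 1157. Of 6 tested myeloid and dendritic markers, Cd74 and H2-Aa fell and none rose, and the sums were 1172 to 1414 in NOD and 1467 to 1758 in B6. Cst3 went the other way, at 705, 982 and 606 in NOD against 529, 522 and 585 in B6, without passing the test. Among 3 tested thymic epithelial markers Aire fell, with sums of 174 to 247 in NOD and 250 to 333 in B6. Most of these sums came from Epcam, at 161, 218 and 149 in NOD against 285, 231 and 195 in B6, which overlapped. None of 3 tested B cell markers passed, with sums of 151 to 210 and 176 to 224, and no marker of these lists was at 0 in all 6 libraries. The myeloid and epithelial sums were lower in every NOD library, as Kmt2d, Setd1b and Smarcd3 were. So were Rag1, Dntt and Arpp21 among the thymocyte markers, and Ebf1 (17, 15 and 14 against 52, 29 and 31) and the untested Ms4a1 among the B cell markers. Within the myeloid and epithelial lists, so were Cd74, H2-Aa, H2-Ab1, Aire and the untested Psmb11. Cst3, Cd8a and the B cell marker Cd79a (56, 58 and 86 against 32, 48 and 55) were higher in every NOD library. The regulatory T cell markers Cd3e, Cd4 and Ctla4 were also higher in every NOD library, and Cd4 and Ctla4 did not pass the test. The part of these markers in the Kmt2d, Setd1b and Smarcd3 results was not tested.

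The filter on low values left out 5 members. Those just inside it were Hdac11, at 4, 14 and 1 in NOD and 11, 5 and 10 in B6, Dnmt3aos, at 18, 13 and 3 against 4, 7 and 13, and Smarce1-ps1, at 13, 11 and 13 against 13, 12 and 9. Just outside were Kdm4dl, at 4, 4 and 3 against 7, 10 and 6, and Dnmt3bos, at 1, 5 and 2 against 2, 4 and 7. Dnmt3c, a germline methyltransferase gene, and Dnmt3l, a cofactor of Dnmt3a, had at most 2 normalized counts in any library, and Smarca1 had none. Pseudogenes and antisense transcripts made up 5 of the tested members, and none was called. Smarca5-ps, a pseudogene, was at 33, 35 and 30 in NOD and 47, 42 and 50 in B6, with strains apart (-0.49 ± 0.27, limma adjusted p = 0.37). Dnmt3l-ps1, a pseudogene on chromosome 2 from 83744484 to 83745736, was at 81, 66 and 47 in NOD and 128, 270 and 77 in B6, which overlapped (-1.12 ± 0.39, limma adjusted p = 0.11). It lies opposite Itgav, the integrin alpha V gene, which fell from 13381, 12884 and 13922 in B6 to 7825, 6097 and 6432 in NOD (-0.99 ± 0.12, limma adjusted p = 0.00018). Reads of such opposite genes cannot be told apart without the strand setting.

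The authors' deposited table gave an adjusted p for 79 of the members, and 8 of these were below 0.05, beside 9.75% of the genes with an adjusted p there. In the authors' deposited table the genes lower in NOD were Kmt2d (log2 fold change -0.85), Setd1b (-0.59), Smarcd3 (-1.33), Setd3 (-0.33) and Dnmt3l-ps1 (-1.29), 5 in all, and the 3 that were higher were Setd4 (0.57), Setd6 (0.40) and Kdm7a (0.39). The mean in the authors' deposited table was 0.525 to 3.32 times the mean of the 6 columns for the tested members, and why the means differ was not tested.

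The count of called members moved with the libraries used. With each library left out in turn, 1 to 4 members fell and 0 to 2 rose. Without both NOD 10 and B6 12, which leaves 2 libraries per strain, no member was called (limma), although 520 genes of the whole table still rose and 655 fell. With those 2 libraries marked by a covariate instead, 5 members fell (Kmt2d, Setd1b, Smarcd3, Setd3 and Dnmt3l-ps1) and 2 rose (Setd4 and Kdm7a). In each of these fits Kmt2d, Setd1b and Smarcd3 stayed below 0 on the log2 scale.

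**Figure D5:**
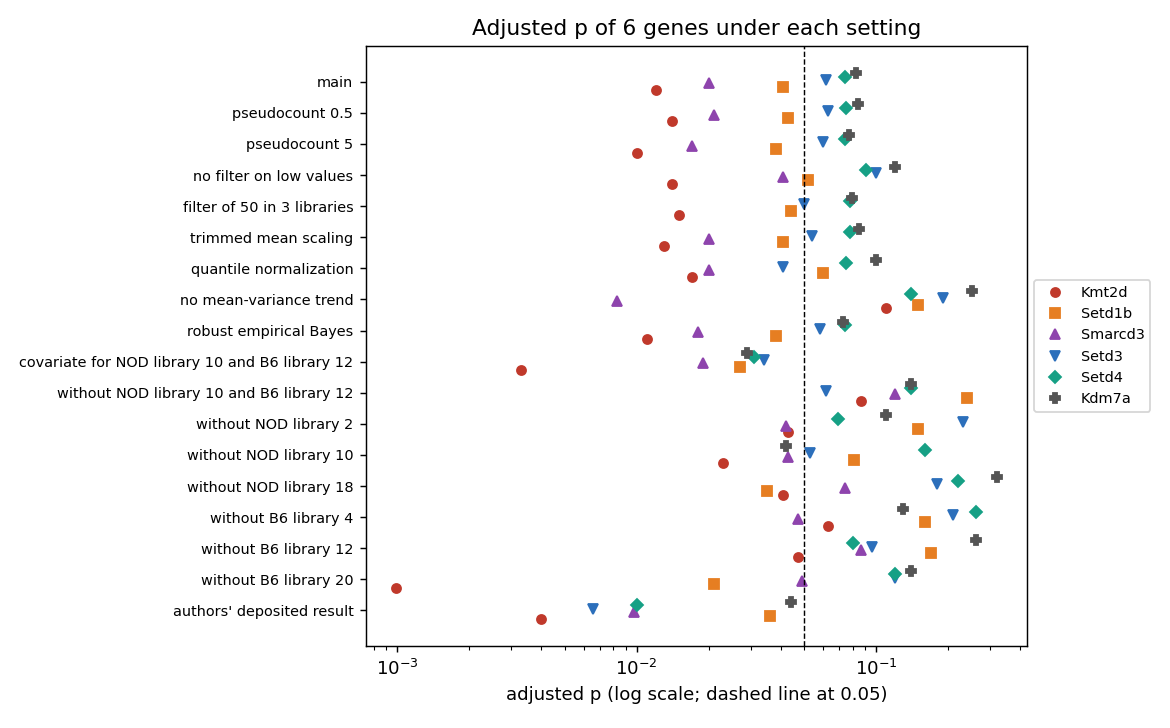
Adjusted p (x axis, log scale, dashed line at 0.05) of Kmt2d, Setd1b, Smarcd3, Setd3, Setd4 and Kdm7a under each processing setting (y axis). Kmt2d passes in most settings, Setd1b moves across the line with single libraries left out, and none of the 6 genes passes without both NOD 10 and B6 12.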

How the data were processed

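RNA sequencing of thymic regulatory T cells gave 3 NOD and 3 B6 libraries. Total RNA was made into libraries with a TruSeq total RNA kit, per the labels. Per the submitters' processing notes, the tools of the authors were STAR, Trimmomatic and DESeq2, on mm10. How well the reads of each strain mapped to this reference, and its part in the strain differences, was not tested. The counter, its annotation and how it treated strand were not given in the sources used here. Per the file headers, each of the 6 columns is normalized; its scores are counts scaled by the authors with a size factor and given as whole numbers. The same deposited table holds the authors' log2 fold change with its error and their p-values from DESeq2, with a mean and a test statistic as further scores. Columns were tied to strains by name, and 0 sample columns were left unused.

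The values were fitted as log2(value + 1), with a pseudocount of 1, by limma 3.58.1 in R 4.3.3 (data.table in version 1.17.8), with strain as the only term and a variance trend on the mean, as planned for scaled counts. Genes needed 10 or more in 3 or more libraries (2 where a library was left out), which 16442 genes met. P-values were two-sided and adjusted over all of these by Benjamini-Hochberg, with calls below 0.05. "Rose" and "fell" mean called higher or lower in NOD. The fit was tested on simulated data with 200 changed genes. Every simulated gene had the same setting for spread between libraries, so this check does not cover genes that vary more. Alternatives were pseudocounts of 0.5 and 5, no filter or a filter of 50, trimmed-mean and quantile scaling, no variance trend, robust moderation, each library left out, the authors' deposited result, and a call that also asks for 1.5-fold; marking NOD 10 and B6 12 with a covariate, and leaving out both, were chosen after seeing the data. Levels per kilobase used the union of a gene's exons in GENCODE M21 (GRCm38, equal to mm10). Summaries were made with Python 3.11.15 and pandas 2.3.3.

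The members and all gene lists were chosen with earlier results of these data known. Genes named are every called member, all DNMT and TET genes, the highest member per kilobase in each class, members with an adjusted p up to 0.10, those on sex chromosomes, those at the edge of the filter, and called genes of the pathway lists. Further members were named after their values were seen: paralogs of called genes, those whose strains did not overlap, Hdac5, Sirt7, Sirt3, Sirt4, Sirt5, other SWI/SNF subunits and, in the closing section, Hdac2, Hdac4, Kdm6b and Smarcc1.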

Additional observations from a re-analysis of the deposited data

How the results depend on the processing

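No paired analysis was possible because the columns carry library numbers that are not the replicate numbers of the labels, and nothing states that neighbouring numbers belong together, so no fit pairing them was run. Leaving out each library in turn gave 0 to 2 members called higher and 1 to 4 called lower, and over all genes 490 (without NOD 18) to 781 higher and 569 (without B6 4) to 1011 lower, against 755 and 871. Beside 0 members higher and 3 lower, the covariate for NOD 10 and B6 12 gave 2 and 5, the result the authors deposited 3 and 5, no variance trend 0 and 1, and leaving out both NOD 10 and B6 12 gave 0 and 0. The other alternatives gave 2 or 3 members lower and 0 higher, not always the same ones: quantile normalization called Setd3 and not Setd1b, and a filter of 50 called Setd3 and left Smarcd3 untested. Apart from that filter, the cause of these shifts was not tested. Among uncalled genes the sign turned when single libraries were left out, with log2 fold changes running from -0.061 to 0.241 for Hdac7, -0.048 to 0.134 for Hdac8, -0.181 to 0.01 for Kdm2b, -0.063 to 0.049 for Kdm5c, -0.031 to 0.085 for Kdm6a, -0.003 to 0.093 for Setd2, -0.134 to 0.021 for Smarca5, -0.531 to 0.197 for Tet1 and -0.041 to 0.138 for Tet3. Tet1 also turned without both NOD 10 and B6 12 (0.069). The deposited scaling and the 2 others tried moved the median log2 fold change of all genes to between 0.00841 and 0.0138. Low values limit Smarcd3, Hdac11, Dnmt3aos and Smarce1-ps1 most, and total counts before scaling are not analysed here.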

Other observations

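Some chromatin enzyme genes had their highest or lowest value in the same pair of libraries, NOD 10 and B6 12. This pattern was picked out after the values were seen and, by the shares below, is not particular to these genes. The highest value of both strains fell in these libraries for 7 of 77 tested members (9.09%), among them the class IIa deacetylase genes Hdac4 and Hdac5 and the demethylase genes Kdm2b and Kdm6b, beside 14.5% of all tested genes. Kdm6b (JMJD3), an H3K27 demethylase known as inducible by immune stimuli, was at 671, 1017 and 663 in NOD 2, 10 and 18 and at 906, 1340 and 610 in B6 4, 12 and 20. The lowest value of both strains fell there for 14 members (18.2%), beside 17.9% of all genes, among them Dnmt1, Hdac1, Hdac2, Sirt1, Smarcc1 and Tet1. Smarcc1, a core SWI/SNF subunit, was at 1930, 1298 and 1974 in NOD and 1787, 1529 and 1740 in B6. Ezh2, the Polycomb methyltransferase of H3K27, was also lowest in both libraries, at 1433, 918 and 1329 in NOD and 1013, 716 and 1040 in B6, and the labels name no batch for them.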
